A study of Mus musculus with 6 samples.

Results

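The genes described here are 9 enzymes of the tricarboxylic acid (TCA) cycle and of its filling in mouse primary myoblasts: Cs, Idh3a, Idh2, Ogdh, Sucla2, Suclg1, Fh1, Mdh2 and Pcx. They were chosen by name, with earlier results of these data known. They are 9 of the 54834 genes in the expression table, with a value in each of 6 RNA-seq libraries. All 9 passed the filter on low values (a mean of at least 1 FPKM, fragments scaled to transcript length and library size, which 11967 genes passed). The study asked how chronic hypoxia and its regulator HIF-2α change muscle stem cell-derived myoblasts. The cells came from FACS-sorted satellite cells of the genotype labelled Pax7-ZSGreen and had been adapted to 20% pO2 (normoxia), 4% pO2 (mild hypoxia) or 1% pO2 (severe hypoxia) for more than 2 weeks. At each pO2, cells received a vehicle (0.1% DMSO) or 1 μM PT2385, a small molecule that keeps HIF-2α from pairing with ARNT, for 48 h. There was 1 library per condition, made from RNA of 9 cultures over 3 temporal replicates that were pooled, so the spread between cultures cannot be read from these values.

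The TCA cycle runs in the mitochondrial matrix, where it oxidizes the acetyl group of acetyl-CoA to CO2 and passes the electrons to the respiratory chain. Its intermediates also leave the cycle as building blocks for lipids, amino acids and haem, and pyruvate carboxylation refills it. When oxygen is scarce, HIF-1 is known to raise pyruvate dehydrogenase kinase, which keeps pyruvate from entering the cycle, and reductive carboxylation of 2-oxoglutarate can then supply citrate.

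Promoter windows are shown for Pcx, Ogdh and Suclg1, so that the letters before a transcription start of each can be read beside its values. Pcx was the member with the largest fall under hypoxia, Ogdh rose at 4% pO2 and Suclg1 fell at both levels. Each window holds the 250 bases before a RefSeq transcription start (mouse build GRCm38.p6), on the gene's plus strand, 5′ to 3′. Capitals mark the core of the hypoxia-response element, ACGTG or GCGTG on either strand. Pcx is at chr19:4510222-4510471, Ogdh at chr11:6291920-6292169 (the window with the most matches of its 6) and Suclg1 at chr6:73248255-73248504. In the GENCODE M21 gene models Ogdh starts at base 6291633, so its window lies inside the gene. Suclg1 starts at base 73248382, which is inside its window.
Pcx: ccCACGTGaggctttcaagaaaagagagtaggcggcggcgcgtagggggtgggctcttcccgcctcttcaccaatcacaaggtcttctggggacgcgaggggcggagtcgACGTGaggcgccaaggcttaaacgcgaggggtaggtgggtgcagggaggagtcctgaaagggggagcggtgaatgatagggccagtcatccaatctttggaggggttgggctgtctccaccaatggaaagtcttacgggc
Ogdh: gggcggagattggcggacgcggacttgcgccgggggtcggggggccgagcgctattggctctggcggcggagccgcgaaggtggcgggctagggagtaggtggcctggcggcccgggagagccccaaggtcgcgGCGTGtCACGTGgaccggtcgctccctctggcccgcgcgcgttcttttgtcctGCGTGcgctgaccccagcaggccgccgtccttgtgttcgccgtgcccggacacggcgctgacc
Suclg1: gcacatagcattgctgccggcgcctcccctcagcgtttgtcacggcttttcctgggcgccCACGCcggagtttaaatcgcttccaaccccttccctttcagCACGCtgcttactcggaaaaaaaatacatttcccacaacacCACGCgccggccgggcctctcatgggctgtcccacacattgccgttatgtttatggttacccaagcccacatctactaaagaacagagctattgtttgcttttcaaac

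The Pcx window held 3 matches, the Ogdh window 4 and the Suclg1 window 3, counting both strands, so that CACGTG counts as 2 overlapping matches. Over the 8 members with a window (Cs, Idh2, Ogdh, Sucla2, Suclg1, Fh1, Mdh2 and Pcx), 11 of 14 windows held the core, against 38.6% of all 32851 promoters. Ogdh alone gave 6 of the 14, each with the core, and some windows of one gene overlap. By gene the count was 6 of 8, and a share by gene over all genes was not taken. The windows of Cs and Sucla2 held none, nor did that of a second Pcx start at chr19:4594069-4594318. Sucla2, too, fell at both levels, and the windows shown hold more matches than any window of a member not shown. The GABP/ETS motif CCGGAAG, the oestrogen-related receptor motif AAGGTCA and the NRF1 motif were in 0 of the 14 windows, against 6.91%, 4.08% and 0.782% of all promoters. These matches are letters in a window, and they fell in members that moved in opposite directions.

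The depth estimated from the step between low FPKM values was 19300000 to 22600000 fragments per library, and the 4% pO2 PT2385 library was the shallowest. The hypoxia check genes Slc16a3 (lactate export), Car9, Pdk1 and Vegfa were called higher at both 4% and 1% pO2 (4 of 4, against 16.3% of all genes). Of the 7 myoblast markers, 6 reached 1 FPKM and Myf5 did not. Their sum was 1308 and 1338 FPKM at 20% pO2 and 761.1 to 847.5 FPKM under hypoxia. Most of that sum was Myod1, at 921 and 951 FPKM at 20% pO2 and 501 to 625 under hypoxia. Among these 6, Itga7 alone was higher at 1% pO2, at 51.0 and 46.7 FPKM against 42.9 and 44.7 at 20%. Markers of differentiating muscle (8 of 8 reached 1 FPKM) summed to 130 and 80.43 FPKM at 4% pO2, against 37.64 to 59.14 elsewhere. Leukocyte markers (3 of 7 reached 1 FPKM) summed to 93.63 and 103.4 FPKM at 4% pO2, 20.72 and 22.94 at 1% and 4.385 and 5.04 at 20%. Most of the sum at 4% pO2 was Laptm5. Cd68 measured 2.08 and 2.78 FPKM at 20% pO2, 10.4 and 9.88 at 4%, and 13.5 and 14.6 at 1%, where it was most of the sum, and was called higher at both levels, and Cd14 was called higher at 1%. The defining markers Ptprc, Adgre1 and Itgam were at or near 0, and Csf1r reached at most 0.167 FPKM. Adipocyte markers (3 of 4 reached 1 FPKM) summed to 25.54 FPKM in the 1% pO2 PT2385 library and to 1.268 or less in the others, fibroblast markers (2 of 6) to at most 7.745 and endothelial markers (1 of 4) to at most 1.089. Markers of dividing cells (5 of 5 reached 1 FPKM) summed to 815.2 and 784 FPKM at 20% pO2, 708.8 and 720.4 at 4%, and 652.3 and 654.5 at 1%. Of these, 3 were called lower at both levels, against 12.4% of all genes, while Mki67 was called higher at 4% (+0.47). The part of all these markers in the results below was not tested. In bulk RNA, fewer cells of a type and less RNA per cell cannot be told apart.

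The order of the members by level was nearly the same in every library. Mdh2, the malate dehydrogenase that closes the cycle, was the highest at 337.5 to 376.9 FPKM, followed by Cs, Idh2 and Idh3a in all 6 libraries. Pcx, the pyruvate carboxylase that makes oxaloacetate, was the lowest at 2.45 to 6.36 FPKM. By mean level, Mdh2 stood at the 98.1th percentile of all genes tested and Pcx at the 23.6th. The middle places changed hands: Ogdh was 8th at 20% and at 1% pO2 and 5th at 4% pO2, and neighbours among Suclg1, Sucla2 and Fh1 swapped places between libraries. The summed level of the 9 genes was 1006.8 and 1052.8 FPKM at 20% pO2, 913.1 and 909.5 at 4% and 852.6 and 865.9 at 1%.

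**Figure D1:**
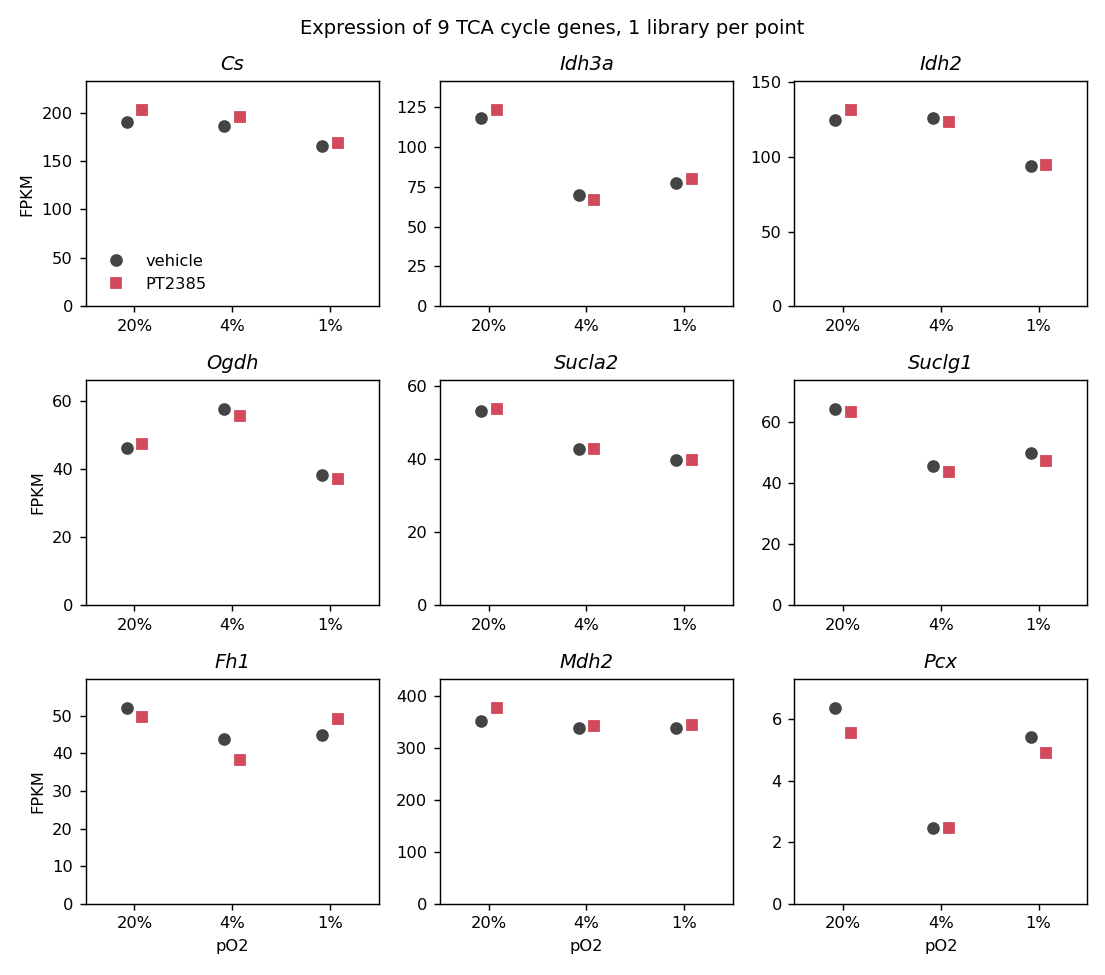
FPKM (y axis, from 0) of each member at 20%, 4% and 1% pO2 (x axis), with 1 point per library, circles for vehicle and squares for PT2385. Idh3a and Pcx show the deepest drops at 4% pO2, Ogdh is highest there, and the circle and square of a pO2 lie close together for most genes.

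To compare hypoxia with normoxia, limma was fitted to log2(FPKM + 1) of all 6 libraries with pO2 and treatment as additive terms, with Benjamini-Hochberg adjustment over all genes and a call at an adjusted p under 0.05. The 2 libraries of a pO2 thus stand in as its replicates, and the error is what the additive terms leave. Since the labels do not say that they came from separate cultures, the p-values may miss variation between cultures. Fold changes on this scale understate the change of low genes such as Pcx.

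At 4% pO2, 5 of the 9 members were called lower than at 20% and 1 higher, where 22.7% of all genes tested were called lower and 27.5% higher. The members' median difference was -0.30 (log2), against 0.02 over all genes. At 1% pO2, 6 of 9 were called lower and 0 higher, against 21.9% and 25.0% of all genes, and the median was -0.30 against 0.00. At 1% pO2 both libraries lay below both 20% pO2 libraries for 9 of 9 members, which was so for 36.5% of all genes. At 4% pO2 this held for 6 members, against 35.1% of all genes. The differences were modest: across the 6 libraries, the highest value was 1.12 times the lowest for Mdh2, 1.84 times for Idh3a and 2.59 times for Pcx. Both contrasts use the same 20% pO2 libraries, so their values are given side by side and do not count as separate support. Since the members were chosen with earlier results of these data known, the shares over all genes are a background and not a test.

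**Figure D2:**
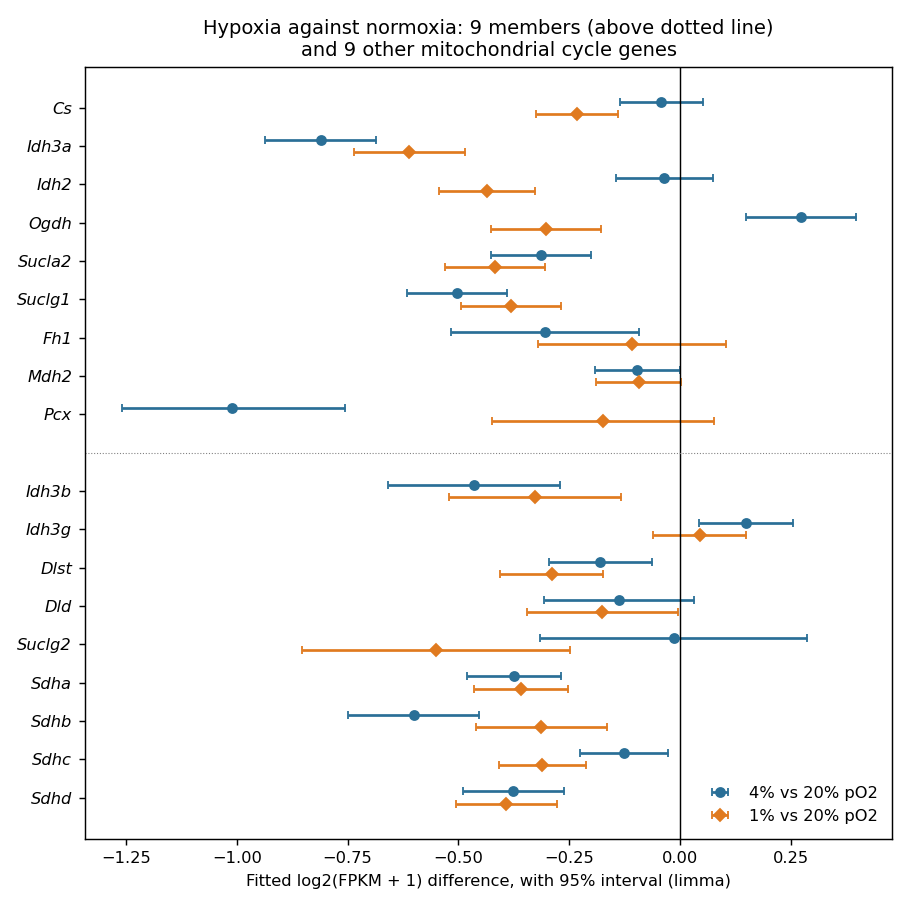
Fitted log2(FPKM + 1) difference from 20% pO2 (x axis, limma, bars are 95% intervals) at 4% pO2 (circles) and 1% pO2 (diamonds) for the 9 members and, below the dotted line, for 9 other mitochondrial cycle genes. Idh3a lies well below 0 at both levels, Ogdh changes side, and Pcx is near -1 at 4% and near 0 at 1%.

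Idh3a, the catalytic subunit of the NAD-dependent isocitrate dehydrogenase, fell the most of the members at 1% pO2 and second to Pcx at 4%. It measured 118 FPKM with vehicle and 123 with PT2385 at 20% pO2, 69.9 and 66.8 at 4%, and 77.2 and 80.2 at 1%. The 3 pairs did not overlap, and the order of the pO2 levels was not the order of the values, since 4% was the lowest. The fitted difference from 20% pO2 was -0.81 ± 0.05 (SE, adjusted p = 0.000276) at 4% and -0.61 ± 0.05 (adjusted p = 0.000729) at 1%, and both calls were kept under every alternative tried. The partly regained level at 1% against 4% pO2 was +0.20 (adjusted p = 0.0265). That last call was lost with any 1 library left out other than the 4% pO2 vehicle library (adjusted p = 0.0553 without 20% pO2 vehicle, 0.0551 without 20% pO2 PT2385, 0.121 without 4% pO2 PT2385, 0.0877 without 1% pO2 vehicle and 0.152 without 1% pO2 PT2385).

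The enzyme also holds the subunits encoded by Idh3b and Idh3g, and the 3 did not move together. Idh3b measured 98.7 and 90.6 FPKM at 20% pO2, 67.5 and 68.9 at 4%, and 70.7 and 79.9 at 1%, and was called lower at both levels (-0.47 and -0.33). Idh3g measured 73.8 and 73.3 FPKM at 20%, 82.8 and 80.5 at 4%, and 75.3 and 76.4 at 1%. It was called higher at 4% pO2 (+0.15, adjusted p = 0.0332) and not at 1% (+0.04, adjusted p = 0.428). The ratio of Idh3a to Idh3g in FPKM was therefore 1.6 and 1.68 at 20% pO2, 0.845 and 0.83 at 4%, and 1.03 and 1.05 at 1%: the catalytic subunit's transcript outnumbered that of the regulatory subunit at 20% pO2 and not at 4%.

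Idh2, the mitochondrial NADP-dependent isocitrate dehydrogenase, which can also run in reverse, showed a different course. Its values were 125 and 131 FPKM at 20% pO2, 126 and 124 at 4%, and 94.2 and 94.7 at 1%. The libraries at 20% and 4% overlapped, and both at 1% lay below them. The fitted difference was -0.04 ± 0.04 (adjusted p = 0.517) at 4% and -0.44 ± 0.04 (adjusted p = 0.00129) at 1% pO2, with -0.40 (adjusted p = 0.00241) between 1% and 4%. Its cytosolic counterpart Idh1 rose from 9.18 and 9.48 FPKM at 20% pO2 to 57.2 and 54.1 at 4% and to 38.6 and 44.6 at 1%. The fitted differences of Idh1 were +2.45 (adjusted p = 5.43e-05) and +2.04 (adjusted p = 0.000101). Per unit of Idh2, Idh1 thus went from 0.0734 and 0.0722 at 20% pO2 to between 0.41 and 0.471 under hypoxia. By the test, Idh3a and Idh3b were lower at both levels, Idh2 was lower at 1% than at 20% and at 4%, and Idh1 was higher at both.

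**Figure D3:**
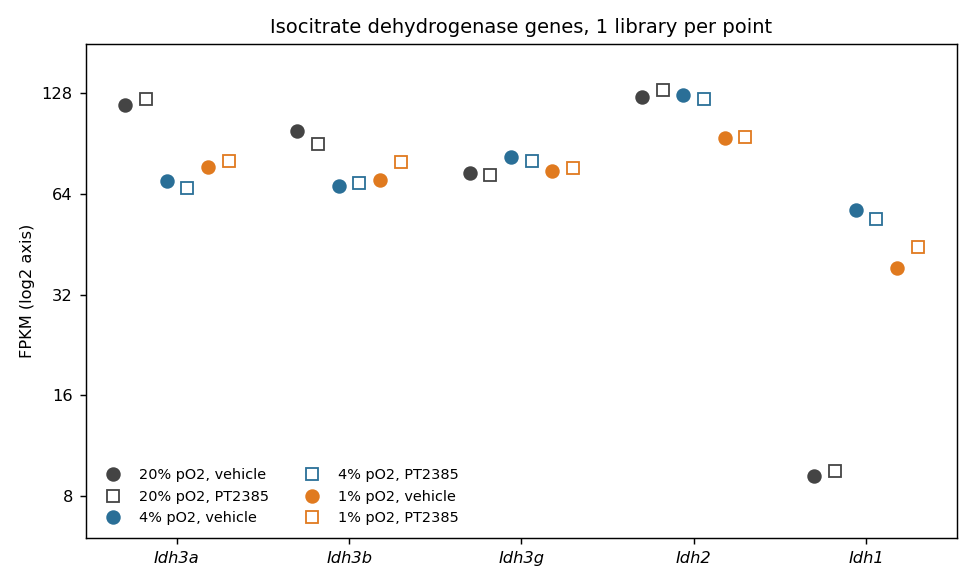
FPKM (y axis, log2 scale) of the 5 isocitrate dehydrogenase genes, with 1 point per library, filled for vehicle and open for PT2385. Idh3a and Idh3b are lower under hypoxia, Idh3g stays between 73.3 and 82.8 FPKM, Idh2 is lower at 1% pO2, and Idh1 is higher at both hypoxic levels.

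Cs encodes citrate synthase, which joins acetyl-CoA and oxaloacetate at the entry of the cycle. It measured 190 and 202 FPKM at 20% pO2, 186 and 195 at 4%, and 165 and 168 at 1%. Its course was that of Idh2 in a weaker form, with overlap between 20% and 4% pO2 and lower values at 1%. The fitted difference was -0.04 ± 0.04 (adjusted p = 0.373) at 4% and -0.23 ± 0.04 (adjusted p = 0.0056) at 1% pO2. The latter was not called without the 20% pO2 PT2385 library (-0.21, adjusted p = 0.0517). Csl, the near-identical copy found for Cs (92.4% identity over 1467 bases), was listed at no more than 0.0281 FPKM.

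Ogdh, the decarboxylating subunit of the 2-oxoglutarate dehydrogenase complex, was the 1 member called in opposite directions at the 2 levels, which was so for 2.92% of all genes. It measured 46.0 and 47.2 FPKM at 20% pO2, 57.5 and 55.5 at 4%, and 38.2 and 37.0 at 1%. The 3 pairs did not overlap, and 4% pO2 was the highest. The fitted difference was +0.27 ± 0.05 (adjusted p = 0.00803) at 4% and -0.30 ± 0.05 (adjusted p = 0.00597) at 1%, and between 1% and 4% it was -0.58 ± 0.05 (adjusted p = 0.0014). The direct comparison of 1% with 4% was called under every alternative. The rise at 4% was not called without the 20% pO2 vehicle library (+0.23, adjusted p = 0.0651), nor was the fall at 1% without the 20% pO2 PT2385 library (-0.26, adjusted p = 0.0532) or the 1% pO2 PT2385 library (-0.28, adjusted p = 0.051).

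The partners of Ogdh in the complex did not share its rise at 4% pO2. At 1% Dlst fell by about as much as Ogdh (-0.29 against -0.30). Dlst, the succinyltransferase core, measured 121 and 123 FPKM at 20% pO2, 111 and 104 at 4%, and 99.8 and 99.4 at 1%, and was called lower at both levels (-0.18 and -0.29). Dld, the dehydrogenase shared with the pyruvate complex, measured 49.1 to 58.8 FPKM over the 6 libraries and was called at neither level. The Ogdh to Dlst ratio was 0.38 and 0.384 at 20% pO2, 0.517 and 0.533 at 4%, and 0.383 and 0.372 at 1%. Against Idh3a, the preceding decarboxylating step, Ogdh went from 0.389 and 0.383 at 20% pO2 to 0.822 and 0.83 at 4%, and to 0.495 and 0.461 at 1%. The sum of the differentiation markers was also highest at 4% pO2 (130 and 80.43 FPKM). Of the 8 markers, 6 were called higher at 4% than at 20% pO2, against 27.5% of all genes. Myog and Ckm were not called, and Myog was highest in the 20% pO2 vehicle library (17.4 FPKM). The part of these markers in the course of Ogdh was not tested.

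Suclg1 and Sucla2 encode the α subunit and the ADP-forming β subunit of succinyl-CoA ligase, the step that yields a nucleoside triphosphate. Suclg1 measured 64.3 and 63.2 FPKM at 20% pO2, 45.7 and 43.6 at 4%, and 50.1 and 47.4 at 1%. Sucla2 measured 53.1 and 53.7 FPKM at 20%, 42.8 and 42.8 at 4%, and 39.8 and 39.7 at 1%. Both were lower under hypoxia with no overlap, and the libraries of one pO2 lay close together. For Suclg1 the fitted difference was -0.50 ± 0.04 (adjusted p = 0.000827) at 4% and -0.38 ± 0.04 (adjusted p = 0.00215) at 1% pO2. For Sucla2 it was -0.31 ± 0.04 (adjusted p = 0.00362) and -0.42 ± 0.04 (adjusted p = 0.0016). These 4 calls were kept under every alternative. With Idh3a, they are the 3 of 9 members called lower at both levels, against 12.4% of all genes. The GTP-forming β subunit Suclg2 was lower in level, at 17.3 to 30.3 FPKM, and was called lower at 1% pO2 (-0.55) and not at 4% (-0.01, adjusted p = 0.931). At 4% pO2 the arms went opposite ways. With vehicle Suclg2 measured 21.9 FPKM against 25.5 at 20% pO2, and with PT2385 30.3 against 26.6.

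Fh1, the fumarase, measured 52.1 and 49.6 FPKM at 20% pO2, 43.8 and 38.3 at 4%, and 45.0 and 49.3 at 1%. The 20% pO2 libraries were the highest, by a narrow margin over the 1% pO2 PT2385 library. The fitted difference at 4% was -0.30 ± 0.08 (adjusted p = 0.0314), which was not called without the 20% pO2 vehicle (adjusted p = 0.171), the 20% pO2 PT2385 (0.137) or the 4% pO2 PT2385 library (0.157). At 1% pO2 it was -0.11 ± 0.08 (adjusted p = 0.336), with a 95% interval of -0.32 to 0.10.

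Mdh2 measured 351 and 377 FPKM at 20% pO2, 339 and 341 at 4%, and 338 and 344 at 1%. All 4 hypoxic libraries lay below both normoxic ones, by less than 0.1 on the log2 scale after fitting. Neither -0.10 ± 0.04 at 4% (adjusted p = 0.0836) nor -0.09 ± 0.04 at 1% (adjusted p = 0.0966) was called, and the intervals ran from -0.19 to 0.00 at both levels. The cytosolic Mdh1 measured 85.8 and 87.2 FPKM at 20% pO2, 80.9 and 74.9 at 4%, and 69.0 and 66.7 at 1%, and was called lower at 1% (-0.35).

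Pcx had the largest difference and the lowest level of the members. It measured 6.36 and 5.55 FPKM at 20% pO2, 2.45 and 2.46 at 4%, and 5.43 and 4.88 at 1%. Both 4% pO2 libraries stood apart from the other 4. The fitted difference was -1.01 ± 0.10 (adjusted p = 0.00114) at 4% and -0.17 ± 0.10 (adjusted p = 0.202) at 1% pO2, and between 1% and 4% it was +0.83 (adjusted p = 0.0032). With vehicle, the FPKM ratio of 4% to 20% pO2 was 0.386, with an exact binomial 95% interval of 0.331 to 0.451 on the longest coding transcript and 0.227 to 0.65 on the shortest, which covers counting error only. With PT2385 the ratio was 0.443. On the log2(FPKM + 1) scale, Pcx at 4% pO2 with vehicle (-1.09) was the 1 member difference from 20% pO2 past 2-fold, where 2.95% of all genes were past it in that direction, and with PT2385 it was -0.92, short of the limit that 2.94% of all genes passed. At 1.5-fold with vehicle, Idh3a joined Pcx at 4% pO2 (7.37% of all genes were lower by as much) and was past it at 1% (6.87%). A gene on the opposite strand, Lrfn4, overlaps Pcx and measured 19.2 to 24.7 FPKM, so reads of the shared stretch cannot be told apart where strand was not kept.

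**Figure D4:**
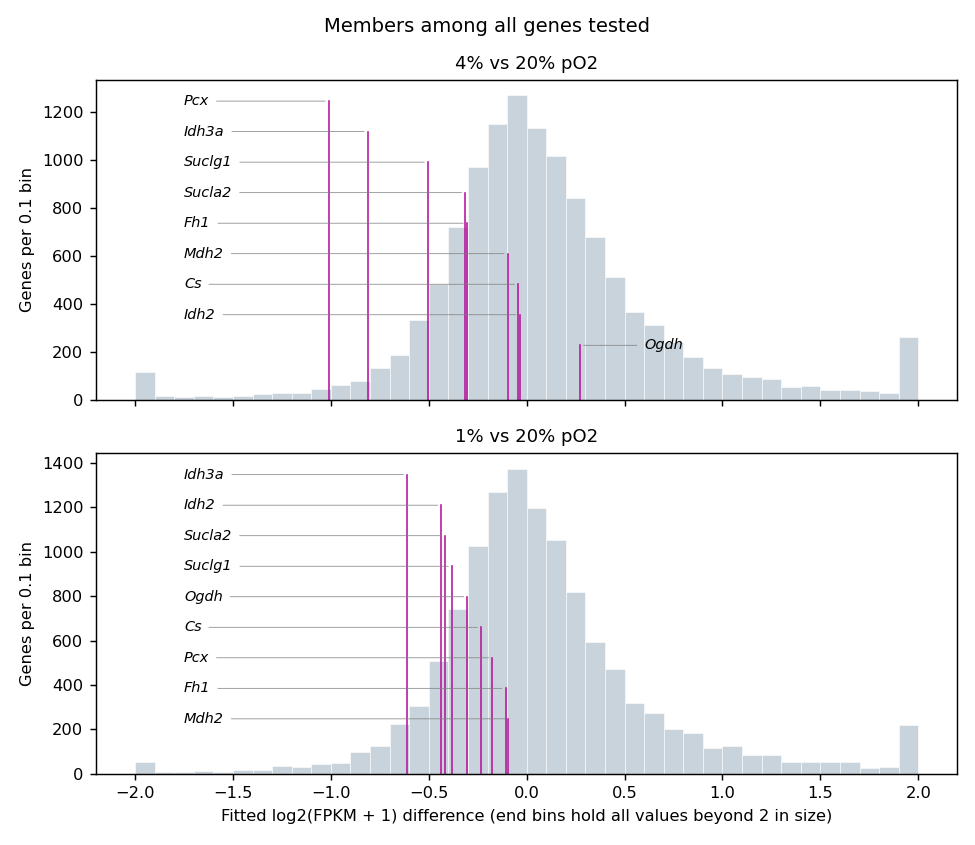
Number of genes (y axis) by fitted log2(FPKM + 1) difference from 20% pO2 (x axis, bins of 0.1) over 11967 genes, at 4% pO2 above and 1% pO2 below, with a line at each member. At 4% pO2 Ogdh lies to the right of 0 and the other 8 to the left, and at 1% pO2 all 9 lie to the left.

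Between 1% and 4% pO2, 2 members were called higher at 1% (Pcx and Idh3a) and 3 lower (Ogdh, Idh2 and Cs), where 20.7% of all genes were called higher and 22.3% lower. The median was 0.00, against -0.01 over all genes. The call of Cs (-0.19, adjusted p = 0.0129) was lost without the 4% pO2 vehicle (adjusted p = 0.0601), 4% pO2 PT2385 (0.0699), 1% pO2 vehicle (0.0543) or 1% pO2 PT2385 library (0.0916). By library, Ogdh, Idh2, Cs and Sucla2 had both 1% pO2 libraries below both at 4% (36.3% of all genes did), and Idh3a, Suclg1, Fh1 and Pcx had both above (35.6%), while those of Mdh2 overlapped. The more severe hypoxia thus did not go with the lower value in every member.

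The rest of the cycle's mitochondrial genes went mostly the same way. Of the 10 other enzymes, 6 were called lower and 1 higher (Idh3g) at 4% pO2, and 8 lower and 0 higher at 1%. Over all genes tested, 22.7% were called lower and 27.5% higher at 4%, and 21.9% and 25.0% at 1%. Their medians were -0.16 and -0.31. The 4 subunits of succinate dehydrogenase, which links the cycle to the respiratory chain, were called lower at both levels, as were 12.4% of all genes. Sdhb, its iron-sulfur subunit, measured 143 and 141 FPKM at 20% pO2, 96.5 and 90.3 at 4%, and 110 and 119 at 1%. Sdha, Sdhc and Sdhd differed by -0.37, -0.13 and -0.38 at 4% pO2 and by -0.36, -0.31 and -0.39 at 1%. Among 13 genes of pyruvate entry, 4 were called higher and 6 lower at 4%, and 3 and 5 at 1%. Pdk1, which inhibits pyruvate dehydrogenase, rose from 1.54 and 1.92 FPKM at 20% pO2 to 101 and 89.8 at 4% and to 75.5 and 74.3 at 1%. The other kinases did not share this course. Pdk2 was called lower at both levels (-0.75 and -0.68) and Pdk3 lower at 4% only (-0.28). Pdk4 was called higher at 4% (+1.17) and lower at 1% (-0.31).

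Slc25a1, the mitochondrial citrate carrier, measured 13.2 and 13.2 FPKM at 20% pO2, 29.2 and 26.6 at 4%, and 17.4 and 18.5 at 1%. Acly, which cleaves citrate in the cytosol, measured 38.2 and 39.0 FPKM at 20%, 97.3 and 95.2 at 4%, and 48.7 and 52.1 at 1%. Both were called higher at both levels, as were 16.3% of all genes. Of the 5 cytosolic counterparts, 2 were called higher (Idh1 and Acly) and 1 lower at 4% pO2, and 2 higher and 3 lower at 1%, among them Aco1, which also acts on citrate (-0.01, adjusted p = 0.899, at 4% and -0.24, adjusted p = 0.0204, at 1%). Of the 5 carriers of cycle acids, 3 were called higher and 0 lower at 4%, and 2 and 2 at 1%. Among 13 measured genes of other filling and draining reactions, 2 were called higher and 4 lower at 4%, and 5 and 3 at 1%. Of 4 succinate dehydrogenase assembly genes, 0 were called higher and 2 lower at 4%, and 1 and 1 at 1%. The shares over all genes were 27.5% higher and 22.7% lower at 4%, and 25.0% and 21.9% at 1%. No list was tested against them. Of the paralogs of members, only Ogdhl passed the filter.

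PT2385 was compared with vehicle to ask what HIF-2α contributes. By limma, 0 of the 9 members were called (0.0% of all 11967 genes were), and 0 of 9 reached an unadjusted p under 0.05, against 12.2% of all genes. The fitted differences ran from -0.10 ± 0.08 for Pcx, with a 95% interval of -0.30 to 0.11, to +0.06 ± 0.03 for Cs, with an interval of -0.02 to 0.14 (adjusted p = 0.47, unadjusted p = 0.0964). The median over members was 0.00, as over all genes. Cs was higher with PT2385 in 3 of 3 pairs, at 202 against 190 FPKM, 195 against 186 and 168 against 165.

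At single pO2 levels, which have no test because each has 1 library per treatment, the FPKM ratios of the members lay between 0.873 and 1.1. The lowest was that of Pcx at 20% pO2, at 5.55 FPKM against 6.36. Its counting interval was 0.774 to 0.985 on the longest transcript and 0.577 to 1.3 on the shortest. At 4% and 1% pO2 the ratio of Pcx was 1.00 and 0.899. Fh1 had the largest PT2385 difference at 4% pO2, at 38.3 FPKM against 43.8, a ratio of 0.873 with a counting interval of 0.823 to 0.926 on the longest transcript. At 1% pO2 the ratio of Fh1 was 1.1, with an interval of 1.04 to 1.16, and at 20% it was 0.951, with an interval of 0.904 to 1. On the shortest transcript the intervals were 0.766 to 0.997 at 4% and 0.972 to 1.23 at 1%, so the change of sign lay past counting error at both levels only on the longest. Whether it exceeds the variation between cultures was not tested. Mdh2 at 20% pO2 had a ratio of 1.07 (1.05 to 1.1), and 1.01 and 1.02 at 4% and 1%. Whether the effect of PT2385 depends on pO2 has no test in this layout, because the interaction leaves no residual.

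**Figure D5:**
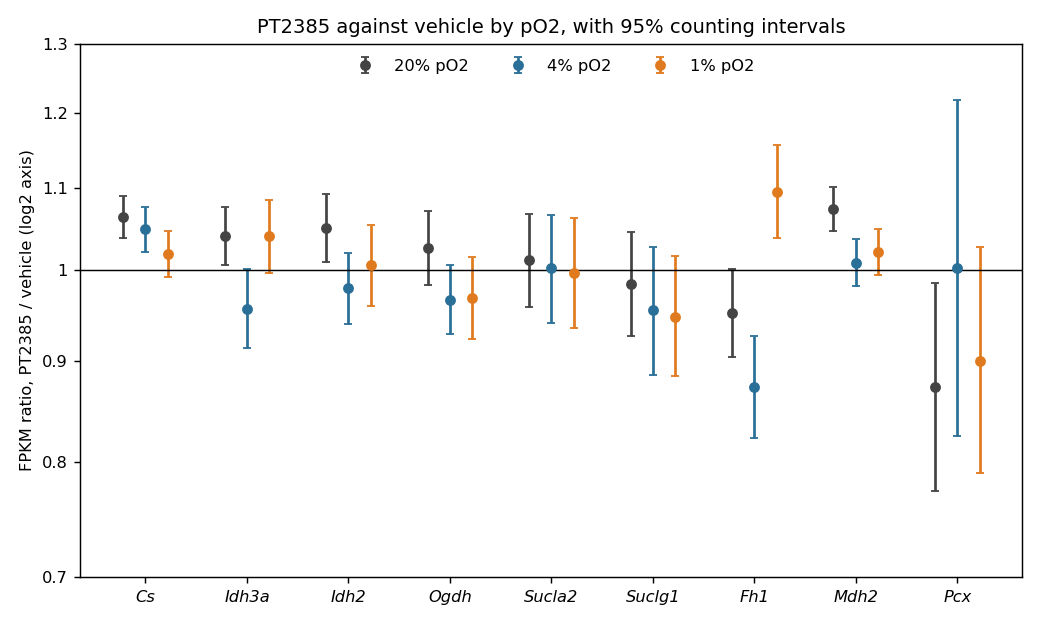
FPKM ratio of PT2385 to vehicle (y axis, log2 scale) for each member at 20%, 4% and 1% pO2, with exact binomial 95% intervals on the longest coding transcript, which cover counting error only. Fh1 is below 1 at 4% pO2 and above 1 at 1%, Cs is above 1 at all 3 levels, and the low-level Pcx has the widest intervals.

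Profiles over the 6 libraries were compared by the Euclidean distance of centred log2 values. Among the members, the nearest were Cs and Mdh2 (0.204), Cs and Idh2 (0.249), then Sucla2 and Suclg1 (0.255). A distance is also small where both genes change little. The Pearson correlations of these pairs were 0.635, 0.957 and 0.879, and the highest was that of Idh3a and Suclg1 (0.985, distance 0.337). The least alike were Ogdh and Pcx (1.56). Outside the list, among the 6952 genes at a mean of 10 FPKM or more, the nearest profile to Idh3a was that of Tmem50b (distance 0.0767), at 25.5 and 25.6 FPKM at 20% pO2, 14.6 and 14.6 at 4%, and 16.1 and 16.8 at 1%. The nearest to Ogdh was Map4k4 (0.0883), to Pcx Ckap2 (0.112), to Cs Eif4h (0.0429), to Sucla2 Nap1l1 (0.0391), to Suclg1 Ptk7 (0.0633), to Fh1 Wrb (0.0449) and to Mdh2 Ptpmt1 (0.0419). These distances rest on 6 libraries that all genes share.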

How the data were processed

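The 6 RNA-seq libraries are 1 for each condition. The table deposited by the authors states no unit, and its values were taken as FPKM from their range and the tools named, and used with no further scaling. Reads were mapped to GRCm38, with TopHat2 and Ensembl release 100 gene models by the supplementary methods, while the submitters' processing notes list HISAT2 2.1.0, SAMtools 1.3.1, Cufflinks and Cuffdiff 2.2.1. Strandedness is not given in the sources used here.

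Groups came from the sample labels. Members and lists were chosen with earlier results of these data known. GENCODE M21 held 54719 of the 54834 identifiers. limma 3.58.1 (R 4.3.3) was fitted with a variance trend to log2(FPKM + 1) of the 11967 genes whose mean reached 1, with pO2 and treatment as additive terms (2 residual degrees of freedom plus 3.17 from limma's prior). Single libraries were compared without a test, and 2-fold means a log2(FPKM + 1) difference of at least 1. On simulated data for 4% against 20% pO2 (11967 genes), the fit found all 100 genes with a 2-fold and all 100 with a 4-fold change, and made 11 false calls. For PT2385 it found 100 and 100 and made 10 false calls. The simulated noise was equal in size for every gene, with no interaction of pO2 and treatment. In the real fit the SE of the PT2385 difference was 0.03 for Mdh2 and 0.63 for the adipocyte marker Fabp4. The simulated counts thus do not give the power of the fit on the real libraries, nor of the 0 calls for PT2385.

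Fragment numbers behind a value came from the step that separates low values (90.3% to 93.7% of low values lay within 0.1 of a whole fragment), on the longest and shortest coding transcript. Near-identical copies were sought with minimap2 2.31-r1302 at 90% identity over 200 bases. Named genes are all members, the partner subunits and the compartment counterparts. Up to 4 of any list with the largest differences of one sign at both levels are also named. So are Pdk2 to Pdk4, the hypoxia check genes and some cell type markers. The 3 nearest profiles per member were found, and the nearest is named for 8 members. Values of some other genes are not reported here. The alternatives tried were a smaller pseudocount (0.1), no low-value filter, a stricter one (mean 5), median-ratio or equal-sum rescaling, no variance trend, a 1.5-fold limit, the PT2385 arm, and each library left out in turn.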

Additional observations from a re-analysis of the deposited data

Results flagged for a closer look

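For 5 members the response to hypoxia differed between the mild and the severe level, by limma's test of 1% against 4% pO2 directly, which called 43.0% of all genes, so that 5 of 9 is near the share over all genes. On the log2(FPKM + 1) scale, 1% lay above 4% pO2 by 0.83 for Pcx and by 0.20 for Idh3a. It lay below 4% pO2 for Ogdh (-0.58), Idh2 (-0.40) and Cs (-0.19). Ogdh, Idh2 and Pcx were called under every alternative that could give them a value, while Idh3a and Cs were not.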

How the results depend on the processing

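With 1 library per condition, the limits are the missing culture replicates and, for Pcx, low counts. No paired analysis was possible because each condition is 1 library, beyond the additive fit itself, which compares PT2385 with vehicle within each pO2. The counts of members called at 4% and at 1% against 20% pO2, and the 0 for PT2385, stayed within 1.5 times. For 1% against 4% pO2, 5 became 3 with no variance trend and ranged from 3 to 4 with 1 library left out (3 without 4% pO2 PT2385, 1% pO2 vehicle or 1% pO2 PT2385). Of differences from 20% pO2 past 2-fold, 1 became 2 with a pseudocount of 0.1, 0 in the PT2385 arm and 3 at 1.5-fold.

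Equal-sum rescaling turned the small differences of Cs (0.013) and Idh2 (0.019) at 4% pO2, of Mdh2 between 1% and 4% (-0.049), and for PT2385 of Idh3a (-0.023), Idh2 (-0.024) and Sucla2 (-0.035). It also brought Sucla2 between 1% and 4% past the threshold (adjusted p = 0.0393). Median-ratio rescaling turned Sucla2 for PT2385 (-0.006). No value that turned had been called, and the cause was not tested. The Fh1 call at 4% was also lost with no filter (adjusted p = 0.108), equal sums (0.0585) or no trend (0.0657), that of Idh3a between 1% and 4% with no filter (0.069), equal sums (0.0609) or no trend (0.0741), and that of Cs with no trend (0.0618). With no filter, genes at 0 in every library were left out, and Pcx had no value with the stricter filter.

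With 1 library left out, Idh2 at 4% pO2 ran from -0.077 to 0.005, Fh1 at 1% from -0.237 to 0.022 and Mdh2 between 1% and 4% from -0.023 to 0.03. For PT2385, Idh3a ran from -0.004 to 0.056, Idh2 from -0.012 to 0.039, Sucla2 from -0.001 to 0.009 and Fh1 from -0.131 to 0.029.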
